A study of Mus musculus with 5 samples.

Results

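RNA of 10 genes of the oxygen-sensing pathway was examined in embryonic mouse heart ventricles after maternal caffeine. The genes were taken by symbol from the deposited RefSeq gene table: the transcription factor genes Hif1a and Epas1, the oxygen-sensor genes Egln1 and Egln3, and the hypoxia-induced genes Pdk1, Bnip3, Adm, Ndrg1, Ddit4 and Kdm3a. They are 10 of 18307 RefSeq genes, and 10 of 10 passed the filter on low counts that left 13829 genes for testing. The rule itself uses no measured value. Pregnant mice of the outbred CD-1 strain received daily injections from E6.5 (embryonic day 6.5) to E9.5, either caffeine at 20 mg/kg or the vehicle, 0.9% NaCl. Ventricles were dissected at E10.5, while muscular ridges (trabeculae) are growing into the ventricular lumen. Each library came from ventricles pooled over embryos that shared dams and was treated by the submitters as 1 sample. There were 2 vehicle and 3 caffeine libraries, so the p-values measure the spread between pools and single embryos cannot be followed.

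Cells sense oxygen through the hypoxia-inducible factors (HIFs), pairs of an oxygen-labile alpha subunit and the stable beta subunit ARNT. With oxygen present, prolyl hydroxylases encoded by the Egln genes mark the alpha subunit, the VHL ubiquitin ligase binds the mark, and the protein is degraded. In hypoxia the alpha subunit persists and, with ARNT, binds short DNA elements with the core ACGTG or GCGTG near its targets, which include 2 of its own hydroxylase genes, Egln1 and Egln3. The control of HIF1A is thus largely at the level of the protein, which RNA counts do not measure. The embryonic heart develops in low oxygen, and caffeine blocks receptors for adenosine, a signal that builds up when oxygen is short.

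Promoter sequence was available for 8 of the 10 genes from RefSeq on GRCm38.p6, as the 250 bases before a transcript start in that table. Some genes have several starts, so a window may lie within the RefSeq gene. The first listed window lay wholly within it for Hif1a and partly for Pdk1 and Kdm3a. Those of Pdk1, Adm and Kdm3a ended short of the deposited gene start. The first window listed for a gene was used, for these genes and for the background alike. The 4 windows below are given because they belong to both hydroxylase genes, whose RNA was the only RNA of the 10 with non-overlapping groups, to the gene with the most element cores (Bnip3), and to a stress-response target (Ddit4). Each is written 5′ to 3′ on the gene's own strand, with the core ACGTG or GCGTG on either strand in capitals (CACGT and CACGC are the same cores read from the opposite strand).

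Egln1, chr8:124949255-124949504 (- strand): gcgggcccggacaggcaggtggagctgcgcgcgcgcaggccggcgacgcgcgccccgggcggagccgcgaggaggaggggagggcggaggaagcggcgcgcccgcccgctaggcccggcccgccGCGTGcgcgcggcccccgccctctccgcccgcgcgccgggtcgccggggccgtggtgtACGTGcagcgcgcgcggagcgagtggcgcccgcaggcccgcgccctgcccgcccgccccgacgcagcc

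Egln3, chr12:54203875-54204124 (- strand): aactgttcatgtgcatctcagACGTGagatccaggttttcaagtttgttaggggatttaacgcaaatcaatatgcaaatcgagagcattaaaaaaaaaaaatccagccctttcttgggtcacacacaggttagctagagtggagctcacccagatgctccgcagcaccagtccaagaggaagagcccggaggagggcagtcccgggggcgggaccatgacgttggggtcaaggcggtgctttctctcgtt

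Bnip3, chr7:138909507-138909756 (- strand): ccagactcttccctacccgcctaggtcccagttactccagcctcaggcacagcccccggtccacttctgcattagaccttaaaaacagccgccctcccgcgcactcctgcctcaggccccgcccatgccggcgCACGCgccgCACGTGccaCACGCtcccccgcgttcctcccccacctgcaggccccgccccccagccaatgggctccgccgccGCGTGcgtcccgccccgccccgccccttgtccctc

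Ddit4, chr10:59951771-59952020 (- strand): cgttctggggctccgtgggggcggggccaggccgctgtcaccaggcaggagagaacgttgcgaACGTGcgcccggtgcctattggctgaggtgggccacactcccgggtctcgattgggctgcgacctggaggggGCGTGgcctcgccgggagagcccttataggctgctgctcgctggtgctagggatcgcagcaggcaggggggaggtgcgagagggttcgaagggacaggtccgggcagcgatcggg

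At least 1 core lay in the first window of 8 of the 8 genes, against 38.6% of 27025 genes with a window of the same length. The other 3 windows of these genes, 1 of Pdk1 and 2 of Kdm3a, held 0 cores. The ACGTG core lay in 5 of 8 windows, those of Hif1a, Egln1, Egln3, Bnip3 and Ddit4, against 16.6% of all. The GCGTG core lay in the windows of Egln1, Pdk1, Bnip3, Adm, Ddit4 and Kdm3a, against 28.2% of all windows. Bnip3 held 5 matches, of which 2 are the 2 strands of 1 palindromic CACGTG, first met 108 bases before the start. Hif1a held 3 matches, 2 of them likewise 1 palindrome, and Pdk1, Kdm3a and Egln3 held 1 match each. The Egln1 window was 86.0% G and C and that of Egln3 50.8%, and the G and C content of a window moves the chance of holding either core. The background was not matched for it and was not limited to the genes tested here. The 8 genes were listed as pathway genes or hypoxia-induced genes, so cores in their windows may follow from that choice. A match describes letters only, and binding was not measured in this study.

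Between caffeine and vehicle ventricles, 0 of the 10 RNAs passed edgeR's quasi-likelihood test. Across all genes 1 of 13829 (0.00723%) passed an adjusted p of 0.05, and it was none of the 10. At an unadjusted p under 0.05 there were again 0 of 10, where 3.13% of all genes were higher in caffeine and 2.07% were lower. DESeq2 called 18 genes, with 0 of the 10 among them. Log2 fold changes (caffeine minus vehicle) ran from -0.15 for Egln3 to 0.62 for Ndrg1, with a median of 0.05, beside 0.01 over all tested genes. Of the 10, 9 were above 0, where 53.0% of all genes were above 0. Without caffeine replicate 1, 4 were above 0 and 6 below, with a median of -0.03. Without vehicle replicate 1, the median was -0.01. Each of these 2 libraries thus turned the sign of the median.

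**Figure D1:**
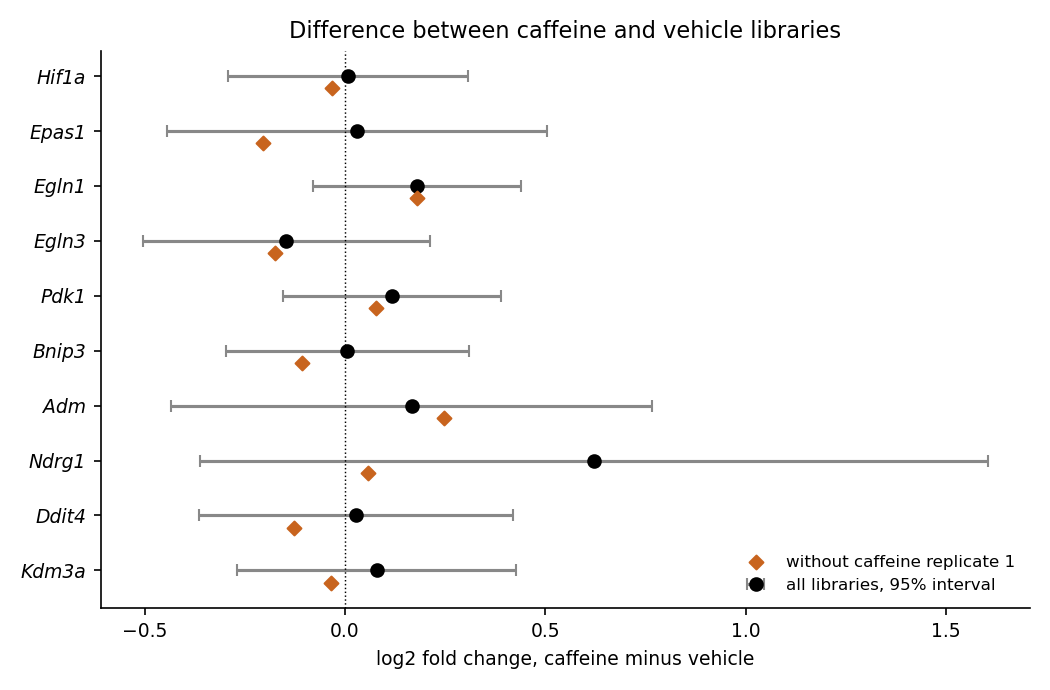
Log2 fold change of caffeine over vehicle for the 10 genes, by edgeR on 2 vehicle and 3 caffeine pools. Circles are the fitted values with bars for 95% intervals, each of which spans 0 (widest for Ndrg1, -0.36 to 1.60), and diamonds are the values without caffeine replicate 1 (0.06 for Ndrg1).

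The 5 libraries held 21713381 to 25048134 gene counts. Their log2 CPM (the count as a share of the TMM-scaled total over tested genes) correlated at 0.982 to 0.992 across genes. The tissue label was checked against marker genes: the 12 cardiomyocyte markers summed to 35190 to 42790 CPM and the 10 endothelial and endocardial markers to 1366 to 1622 CPM. No marker of any list was at 0 in all 5 libraries. That held for the lists of other tissue too, so it does not set ventricle apart. Markers of other tissue differed between pools of the same group. Foregut and hepatic endoderm markers summed to 117 CPM in vehicle replicate 2 and to 7.26 to 38.5 CPM in the other libraries, and erythroid markers ranged from 7216 to 12560 CPM. The cardiomyocyte sum was lower in each caffeine pool (35720, 35920 and 35190 CPM) than in each vehicle pool (42790 and 39600 CPM). Abundant sarcomere genes make up most of that sum, and 4 of the 12 markers, Nppa, Nkx2-5, Irx4 and Hey2, had log2 fold changes above 0. In such bulk RNA, fewer cells of a type and less RNA per cell cannot be told apart, and the part of tissue composition in the values below was not tested.

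**Figure D2:**
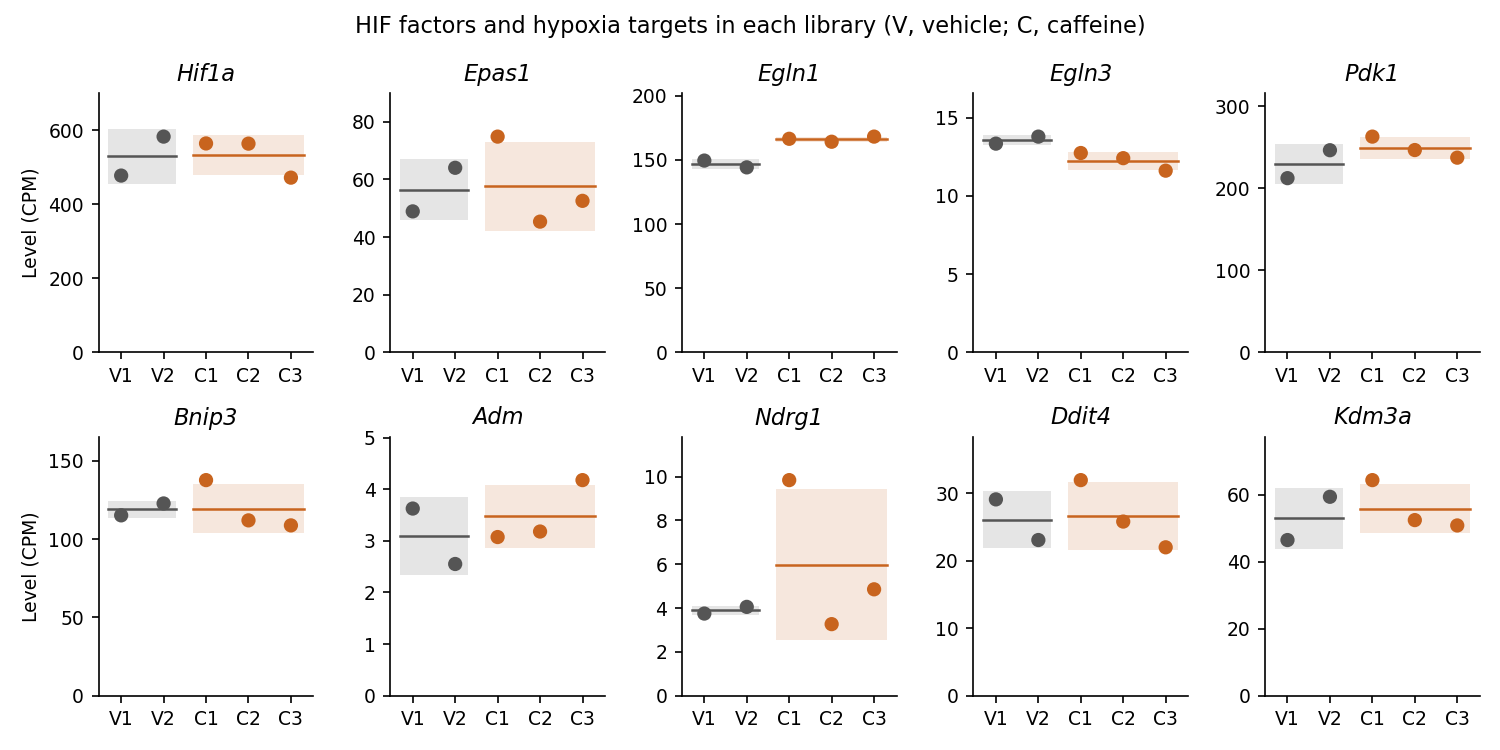
CPM of each of the 10 genes in the 2 vehicle and 3 caffeine libraries, 1 panel per gene with its own scale. Points are libraries and bands are the group mean ± SD, and the groups are apart for Egln1 (144 to 150 against 164 to 168 CPM) and Egln3 (13.4 to 13.8 against 11.6 to 12.8 CPM) and overlap for the other 8 genes.

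Hif1a encodes the broadly expressed HIF-1 alpha subunit and lies on chromosome 12 from 73907867 to 73947531, plus strand (mm10, as are all gene positions here). Its level was 478 and 583 CPM in the vehicle pools and 565, 564 and 472 CPM in the caffeine pools. The highest and lowest libraries were a vehicle and a caffeine pool, and the groups overlapped. The means were 530 ± 74.6 CPM (SD, n = 2) and 534 ± 53.3 CPM (SD, n = 3). The log2 fold change was 0.01 (SE 0.14, edgeR adjusted p = 0.9995), with a 95% interval of -0.29 to 0.31. It turned to -0.13 without vehicle replicate 1 and was 0.13 without vehicle replicate 2, so its sign rests on single pools.

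Epas1 encodes HIF-2 alpha, the subunit best known from endothelial cells, and lies on chromosome 17 from 86753864 to 86833411, plus strand. It was at 48.9 and 64.0 CPM in vehicle and at 74.9, 45.3 and 52.6 CPM in caffeine. The caffeine pools held both the highest and the lowest value. The log2 fold change was 0.03 (SE 0.21, edgeR adjusted p = 0.9995), and -0.21 without caffeine replicate 1. The ratio of Hif1a to Epas1 in CPM was 9.77 and 9.11 in vehicle and 7.54, 12.4 and 8.98 in caffeine, a spread within caffeine that covers both vehicle pools.

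Egln1 encodes PHD2, the main hydroxylase that sets HIF-1 alpha turnover with oxygen present, and lies on chromosome 8 from 124908587 to 124949255, minus strand. It was measured at 150 and 144 CPM in vehicle and at 167, 164 and 168 CPM in caffeine, from 3165 to 4010 counts per library. Each caffeine pool was above each vehicle pool, and the 5 values were close together within their groups. The means were 147 ± 3.8 CPM (SD, n = 2) and 166 ± 1.98 CPM (SD, n = 3), which gave 0.18 on the log2 fold scale (SE 0.12, edgeR adjusted p = 0.9995). The fold was 1.13 with a 95% interval of 0.947 to 1.36. Here edgeR moderates each gene's spread towards that of other genes, so the interval is wider than these 5 values alone would give. The fold change stayed at 0.13 to 0.20 on the log2 scale with each library left out.

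Egln3 encodes PHD3, a hydroxylase whose gene is among the strongly HIF-induced ones, and lies on chromosome 12 from 54178981 to 54203875, minus strand. It was at 13.4 and 13.8 CPM in vehicle and at 12.8, 12.4 and 11.6 CPM in caffeine. Here each caffeine pool was below each vehicle pool, opposite to Egln1. The means were 13.6 ± 0.321 CPM (SD, n = 2) and 12.3 ± 0.581 CPM (SD, n = 3), and the log2 fold change was -0.15 (SE 0.17, edgeR adjusted p = 0.9995). It lay between -0.17 and -0.11 with each library left out. Non-overlap of 2 against 3 pools is common in these data: 11.2% of all tested genes had it with caffeine higher, beside 1 of the 10, and 9.27% with caffeine lower, beside 1 of the 10.

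The ratio of Egln1 to Egln3 in CPM was 11.2 and 10.5 in the vehicle pools and 13.1, 13.2 and 14.5 in the caffeine pools. Egln1 was higher and Egln3 lower in each caffeine pool, so the groups could not overlap in this ratio. It was formed after both genes' values had been seen and was not tested. Both Egln promoters printed above hold an ACGTG core, at 68 bases before the start in Egln1 and at 229 in Egln3.

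Pdk1 encodes a kinase that inactivates pyruvate dehydrogenase and so keeps pyruvate out of the mitochondrial cycle. The gene lies on chromosome 2 from 71873272 to 71903859, plus strand. It was at 212 and 247 CPM in vehicle and at 263, 247 and 237 CPM in caffeine, and the groups overlapped. The log2 fold change was 0.12 (SE 0.13, edgeR adjusted p = 0.9995), and it was 0.01 without vehicle replicate 1, the lowest pool.

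Bnip3 encodes a mitochondrial outer membrane protein that marks mitochondria for removal by autophagy, on chromosome 7 from 138890836 to 138909507, minus strand. It was at 115 and 123 CPM in vehicle and at 138, 112 and 109 CPM in caffeine. The first caffeine pool was the highest of the 5 and the other 2 caffeine pools were the lowest. The means were equal to 3 digits, 119 ± 5.38 CPM (SD, n = 2) and 119 ± 15.9 CPM (SD, n = 3), and the log2 fold change was 0.01 (SE 0.14, edgeR adjusted p = 0.9995). Without caffeine replicate 1 it was -0.11. The gene with the most element cores in its window thus had near-equal group means, with an interval of -0.30 to 0.31 on the log2 fold scale.

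Adm encodes adrenomedullin, a secreted peptide that relaxes and stabilises vessels, and lies on chromosome 7 from 110627669 to 110629820, plus strand. It was at 3.63 and 2.55 CPM in vehicle and at 3.07, 3.18 and 4.18 CPM in caffeine. These values rest on 56 to 92 counts per library, and the groups overlapped. Its log2 fold change was 0.17 (SE 0.28, edgeR adjusted p = 0.9995), and it lay between -0.09 without vehicle replicate 2 and 0.44 without vehicle replicate 1. Its receptor genes, Calcrl and Ramp2, had log2 fold changes of 0.02 (SE 0.15) and -0.05 (SE 0.14).

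Ndrg1, a gene induced by hypoxia and by differentiation whose product takes part in stress responses and vesicle traffic, lies on chromosome 15 from 66929318 to 66969642, minus strand. It was at 3.75 and 4.05 CPM in vehicle and at 9.84, 3.27 and 4.86 CPM in caffeine. Caffeine replicate 1 stood above the other 4 libraries, while caffeine replicate 2 was the lowest. The counts were 91 and 89 in vehicle and 237, 76 and 107 in caffeine. The log2 fold change of 0.62 (SE 0.43, edgeR adjusted p = 0.9995) was the largest of the 10, and it was 0.06 without caffeine replicate 1 and 0.92 without caffeine replicate 2. The fold of 1.54 had a 95% interval of 0.778 to 3.04, which covers both a lower and a much higher level in caffeine.

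Ddit4 encodes REDD1, an inhibitor of mTORC1 signalling that hypoxia, glucocorticoids and the stress factor ATF4 each induce, on chromosome 10 from 59949675 to 59951771, minus strand. It was at 29.1 and 23.1 CPM in vehicle and at 32.0, 25.8 and 22 CPM in caffeine. Caffeine pools were again both highest and lowest. Its log2 fold change was 0.03 (SE 0.18, edgeR adjusted p = 0.9995), with -0.16 and 0.20 when vehicle replicates 2 and 1 were left out.

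Kdm3a encodes a histone H3 lysine 9 demethylase that itself needs oxygen, on chromosome 6 from 71588972 to 71632906, minus strand. It was at 46.5 and 59.4 CPM in vehicle and at 64.4, 52.4 and 50.8 CPM in caffeine, with overlapping groups. Its estimate on the log2 fold scale was 0.08 (SE 0.16, edgeR adjusted p = 0.9995), and -0.09 without vehicle replicate 1.

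Levels of different genes were compared as CPM per kilobase of transcript. In that unit Hif1a was highest at a mean of 112.7 over the 5 libraries, above 95.5% of tested genes with a length. Bnip3 followed at 67.9, with no library of one in the range of the other. Pdk1 (46.5) and Egln1 (44.1) came next, and their ranges of 41.0 to 50.7 and 40.1 to 46.8 overlapped. Ddit4 (15.1), Kdm3a (11.3) and Epas1 (10.4) formed a middle group in which each range overlapped that of its neighbour. Egln3 was at 4.80, apart from both neighbours, and Adm (2.39) and Ndrg1 (1.78) were lowest, with ranges of 1.84 to 3.00 and 1.13 to 3.41 that overlapped. Hif1a RNA was thus above Epas1 RNA per length in each library, and Egln1 above Egln3.

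The 10 genes varied unequally between the 5 libraries. The highest library was 1.17 times the lowest for Egln1 and 1.19 times for Egln3, ranges above those of 9.90% and 13.5% of all tested genes. Hif1a and Pdk1 both had a ratio of 1.24 and Bnip3 one of 1.27. The median ratio over all tested genes was 1.38, close to that of Kdm3a (1.39) and Ddit4 (1.45). Adm (1.64) and Epas1 (1.65) lay above it. Ndrg1, at 3.01, varied more than 95.6% of tested genes. The hydroxylase genes were therefore among the steadier RNAs of these ventricles, and the less abundant Ndrg1 among the most variable.

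Caffeine replicate 1 was the highest library for 6 of the 10: Epas1, Pdk1, Bnip3, Ndrg1, Ddit4 and Kdm3a. Among all tested genes that library was highest for 23.4%. Centred on each gene's mean, the 10 averaged 0.24 in log2 CPM in caffeine replicate 1, against -0.09 and -0.02 in the vehicle pools and -0.09 and -0.04 in the other caffeine pools. These 6 of 10 were counted after their values were seen. They come from 1 caffeine library, in which a response to caffeine and a trait of that pool cannot be told apart. Markers of other cell types also differed in it. The 5 tested macrophage markers of 6 averaged 0.82 in centred log2 CPM there, against -0.37 to 0.09 elsewhere, and the 6 listed summed to 59.2 CPM there and to 36.0 to 46.6 CPM elsewhere. That average rests partly on few counts per library: 12 to 99 for Cx3cr1, 6 to 20 for Cd68 and 3 to 12 for Emr1. The 6 epicardial markers summed to 509 CPM there and to 357 to 431 CPM elsewhere. Of these, 4 were highest there, while Wt1 was highest in caffeine replicate 2 and Upk1b was lowest in caffeine replicate 1 (18.4 CPM). Of the 5, 3 were highest there, Csf1r, Cx3cr1 and Lyz2, with Lyz2 (48.1 CPM) holding most of the sum, while Emr1 was highest in caffeine replicate 2 and Cd68 in caffeine replicate 3. The part of these cells in the levels of the 6 genes was not tested.

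**Figure D3:**
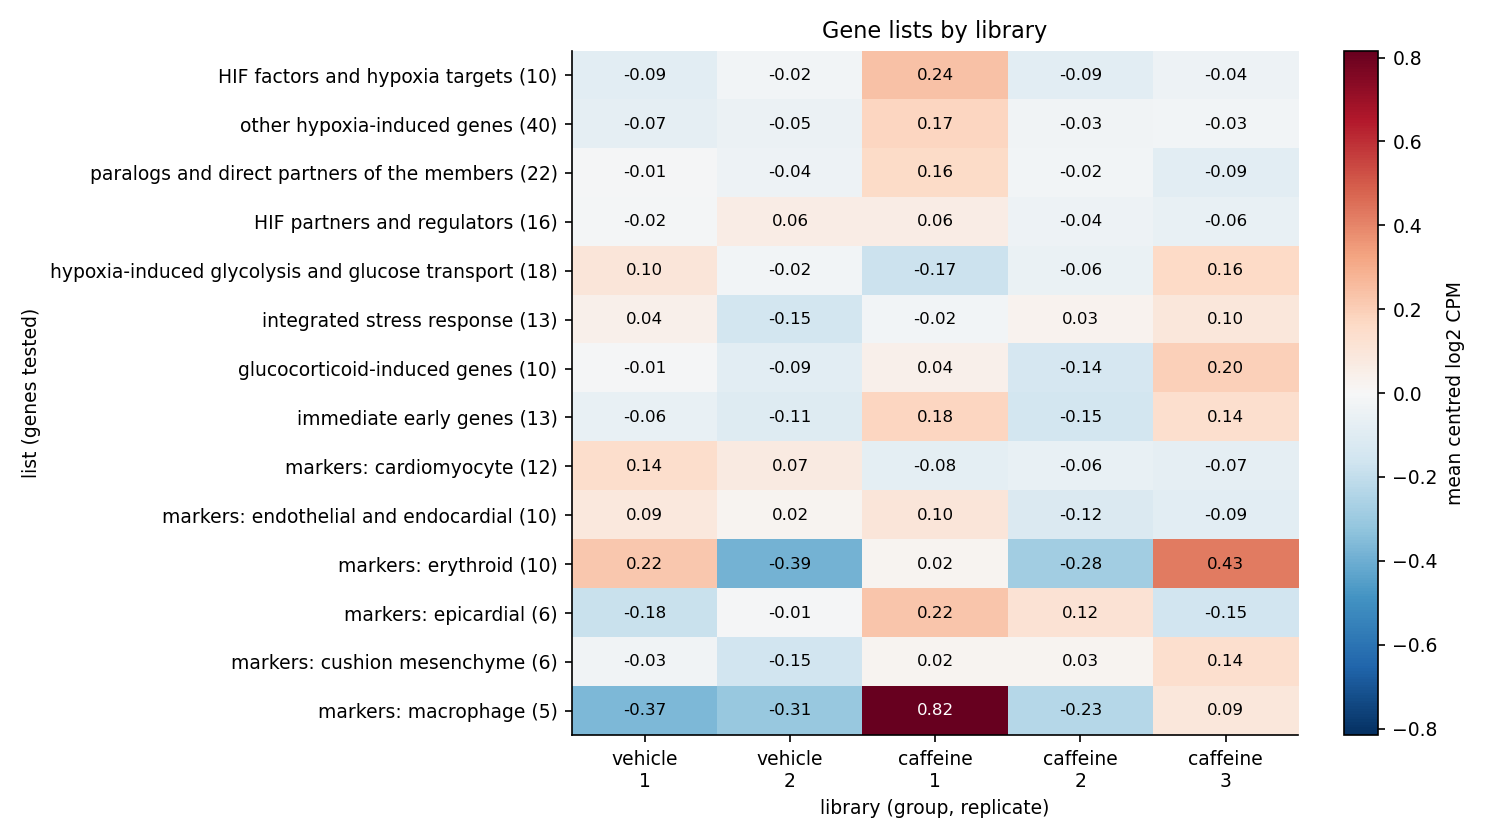
Mean centred log2 CPM of the 10 genes, the related gene lists and the marker lists other than foregut and hepatic endoderm in each of the 5 libraries, centred on each gene's mean over them. The 10 genes stand at 0.24 in caffeine replicate 1, the other hypoxia-induced genes at 0.17, the glycolysis list at -0.17 and the macrophage markers at 0.82.

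Likeness was measured as the mean absolute difference of centred log2 CPM over the 5 libraries, a description of 5 points that share their library. The nearest pair among the 10 was Bnip3 and Kdm3a at 0.0720, followed by Hif1a and Pdk1 at 0.0742. Egln3 was nearest to Bnip3 at 0.0882 and Egln1 to Pdk1 at 0.0895, and Epas1 was nearest to Kdm3a at 0.103. Ndrg1 had the most distant nearest neighbour, Epas1, at 0.303. Among 11977 candidate genes, Ndrg1 was nearest to Csf1r (0.0509), H2-T24 (0.0839) and Nfix (0.0874). Csf1r, the receptor gene for a macrophage growth factor, was at 1.69 and 1.91 CPM in vehicle and at 5.03, 1.504 and 2.41 CPM in caffeine, the order of libraries seen for Ndrg1. Its log2 fold change of 0.73 was 0.12 without caffeine replicate 1. H2-T24 and Nfix had log2 fold changes of 0.61 and 0.54, and of 0.01 and 0.11 without that library. The choice by likeness to Ndrg1, itself highest in caffeine replicate 1, fixes this shared peak and the loss without that library.

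**Figure D4:**
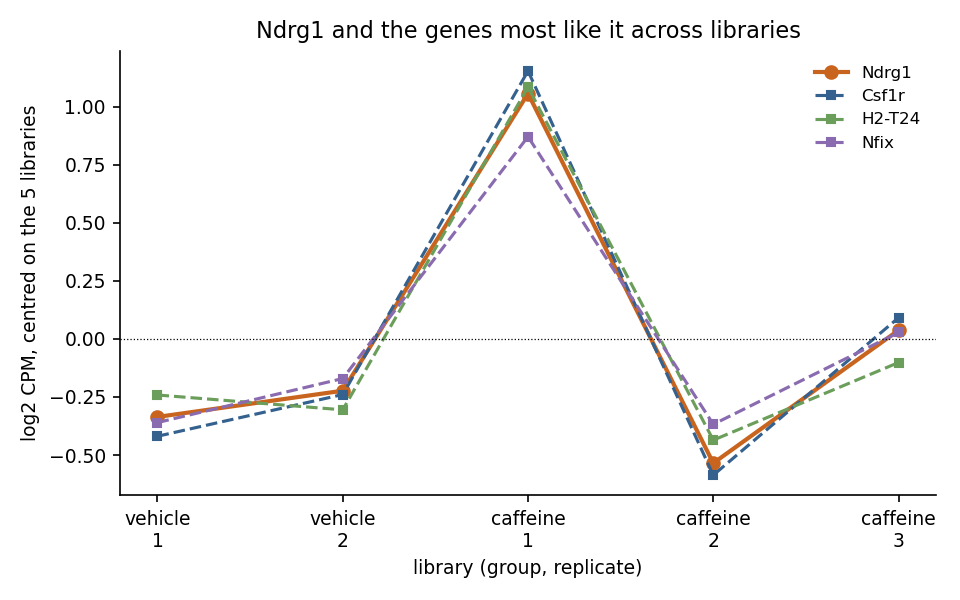
Centred log2 CPM in the 5 libraries for Ndrg1 and the 3 genes nearest to it, Csf1r, H2-T24 and Nfix. The 3 were chosen for likeness, so the 4 lines peak together in caffeine replicate 1 by that choice, where Ndrg1 was at 9.84 CPM and Csf1r at 5.03 CPM.

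At the transcript level the 10 genes had 11 RefSeq transcripts, and 11 of 11 were tested. Of 18418 tested transcripts 0 (0%) passed an adjusted p of 0.05 by edgeR, with 1355 at an unadjusted p under 0.05 and 194 called by DESeq2, none of the 194 from the 10 genes. Kdm3a was the one gene of the 10 with 2 RefSeq transcripts. NM_001038695 held 59.8% and 57.7% of its counts in vehicle and 58.1%, 57.6% and 59.8% in caffeine, and its log2 fold change was 0.08 (SE 0.17, edgeR adjusted p = 0.993). NM_173001 had 0.09 (SE 0.20, edgeR adjusted p = 0.993). The shares of the 2 transcripts varied by about 2 percentage points, and the edgeR usage test gave an adjusted p of 1.00, where 89 of 2897 genes (3.07%) were called.

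The deposited Ensembl tables split the 10 genes into 38 transcripts, with several for 5 of them, and the usage test on these was added after the values were seen. The share of Hif1a held by transcript Hif1a-003 was 45.3% and 35.4% in vehicle and 32.8%, 30.1% and 24.8% in caffeine. Each caffeine pool was below each vehicle pool. Hif1a-001 held nearly all of the rest, so its share is close to the complement. The usage test gave an adjusted p of 0.218 for Hif1a by edgeR, and 0.10 to 0.749 with each library left out. For Pdk1, transcript Pdk1-001 held 80.1% and 66.3% in vehicle and 66.2%, 63.4% and 56.0% in caffeine. Vehicle replicate 1 stood above the rest, and vehicle replicate 2 was barely above the highest caffeine pool. Shares lower in each caffeine pool than in each vehicle pool were seen for 3 of the 14 tested transcripts of the 4 genes with several tested ones, beside 15.3% of 27208 such transcripts over all genes. The third was Bnip3-001, which held 99.1% to 99.9% in each library. In the other direction, Hif1a-001, Hif1a-002, Hif1a-005, Pdk1-003 and Bnip3-005 had higher shares in each caffeine pool than in each vehicle pool. Of these, Hif1a-002, Hif1a-005 and Bnip3-005 held at most 0.12%, 0.39% and 0.52%. Shares within a gene depend on each other, and the higher direction was not counted over all genes. The edgeR usage test gave an adjusted p of 0.334 for Pdk1, a value that depended on which vehicle pool was kept. The adjusted p was 0.159 for Bnip3 and 0.999 for Kdm3a. Usage was called for 523 of 7540 Ensembl genes (6.94%), beside 0 of the 4 of these genes that could be tested. Short reads were divided among overlapping transcripts by the counting, so such shares carry an assignment error that the test does not include.

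**Figure D5:**
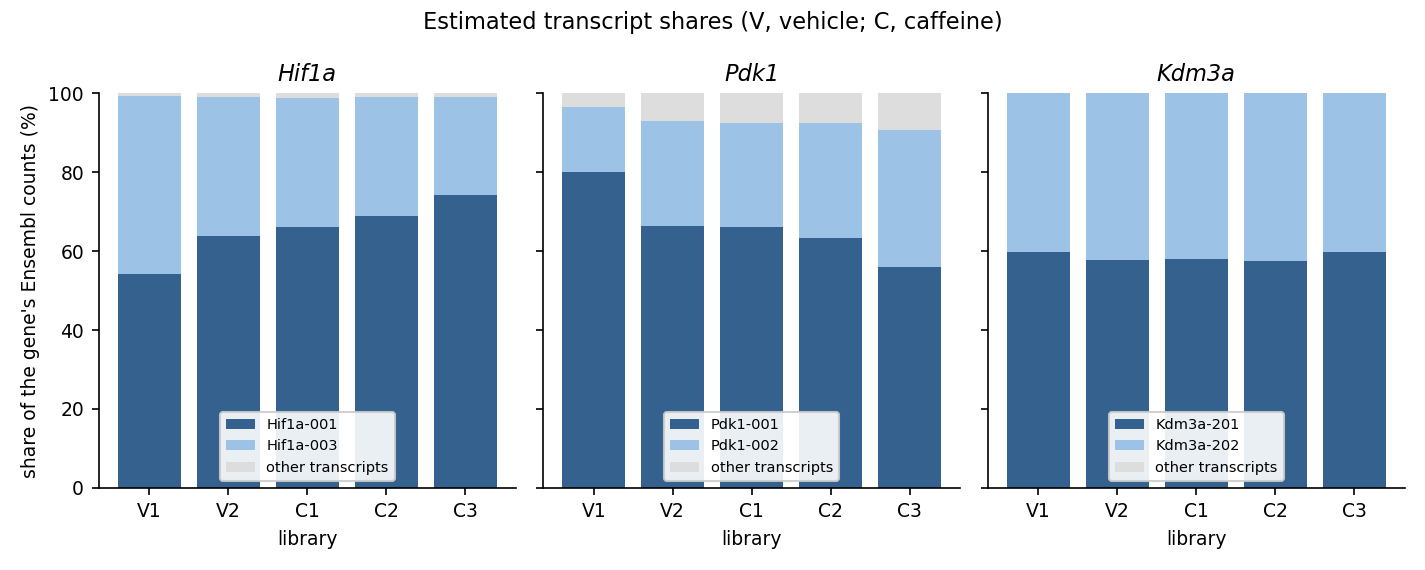
Share of the Ensembl counts of Hif1a, Pdk1 and Kdm3a held by the 2 main transcripts of each, in percent, as stacked bars for the 2 vehicle (V) and 3 caffeine (C) libraries. Hif1a-003 spans 24.8% in caffeine replicate 3 to 45.3% in vehicle replicate 1, and Pdk1-001 spans 56.0% to 80.1%.

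Of 16 HIF partners and regulators, 0 were called, 7 had a log2 fold change above 0 and 9 below, and the median was -0.01. Without caffeine replicate 1, 3 lay above 0 and 13 below, with a median of -0.08, and without caffeine replicate 2 the split was 8 and 8. Arnt, the shared beta subunit, was at 0.03 (SE 0.14), and Vhl, the recognition part of the ligase, at -0.02 (SE 0.14). Hif1an, which encodes a hydroxylase that blocks HIF coactivator binding, was at -0.08 (SE 0.12), and Egln2, the third prolyl hydroxylase gene, at 0.05 (SE 0.14). The 3 genes of the list with the smallest p were Rbx1 (-0.29, SE 0.13, edgeR adjusted p = 0.950), Tceb2 (-0.23, SE 0.14) and Tceb1 (-0.19, SE 0.14), which with Cul2 (-0.13, SE 0.13) encode parts of the VHL ligase. Tceb2 was -0.03 without vehicle replicate 1 and -0.42 without vehicle replicate 2. Rbx1 was at 74.5 and 68.3 CPM in vehicle and at 56.3, 62.9 and 55.5 CPM in caffeine, without overlap.

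Of 18 hypoxia-induced genes of glycolysis and glucose transport, 0 were called, 4 lay above 0 and 14 below, with a median of -0.07. The median was -0.03 without vehicle replicate 1 or without caffeine replicate 1, -0.17 without vehicle replicate 2 and -0.16 without caffeine replicate 3. Pgk1, a glycolytic kinase gene and classical HIF-1 target, was at 1254 and 1090 CPM in vehicle and at 917, 994 and 903 CPM in caffeine. It did not pass the test, at -0.32 (SE 0.13, edgeR adjusted p = 0.924). Eno1 (0.58, SE 0.31) and Hk1 (-0.19, SE 0.12) followed by p. Eno1 was 0.26 without vehicle replicate 2, 0.96 without vehicle replicate 1 and 0.20 on the Ensembl counts. Several of these enzymes, Eno1, Pgk1 and Gapdh among them, have near-identical pseudogenes that can take their reads. Slc2a1, the main HIF-induced glucose transporter gene, was at 952 and 834 CPM in vehicle and at 571, 905 and 1176 CPM in caffeine. Caffeine replicate 1 was its lowest library, and the estimate was -0.01 (SE 0.28). For 1 of these 18 genes that library was the highest, against 6 of the 10 above.

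Of 41 other hypoxia-induced genes 40 were tested and 0 called; 34 lay above 0 and 6 below, with a median of 0.10, where 53.0% of all genes were above 0. Caffeine replicate 1 was the highest library for 20 of the 40, and without it 24 lay above 0 and 16 below, with a median of 0.06. Without vehicle replicate 1, 26 lay above 0 and 14 below, with a median of 0.064, and without vehicle replicate 2, 28 and 12. Vegfa, the angiogenic growth factor gene, was at 62.9 and 66.0 CPM in vehicle and at 93.8, 82.1 and 88.6 CPM in caffeine. The groups were well apart, with a log2 fold change of 0.45 (SE 0.13, edgeR adjusted p = 0.691), and of 0.41 to 0.50 with each library left out. Vegfa thus differed more in its estimate than 9 of the 10 genes above and still did not pass the test over all genes. Wsb1 (0.28, SE 0.15) and Higd1a (-0.23, SE 0.13) were the next by p. Without vehicle replicates 1 and 2 in turn, Wsb1 was 0.07 and 0.49, and Higd1a -0.12 and -0.37.

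Of 23 paralogs and direct partners of the 10 genes 22 were tested and 0 called, with 13 above 0, 9 below and a median of 0.02 (-0.02 without caffeine replicate 1, with 9 above and 13 below). Bnip3l, the closest paralog of Bnip3, was at -0.04 (SE 0.13), and Pdk3 at -0.07 (SE 0.12). Ndrg4, a relative of Ndrg1 best known from heart and brain, was at 153 and 140 CPM in vehicle and at 213, 155 and 151 CPM in caffeine. Like Ndrg1 it was highest in caffeine replicate 1, and its log2 fold change of 0.24 (SE 0.16) was 0.06 without that library. Pdp2, the phosphatase gene that reverses the action of Pdk1, was at 0.20 (SE 0.15), and Pdhb, a subunit gene of their shared target, at -0.16 (SE 0.13; -0.03 without vehicle replicate 1).

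Ddit4 also responds to stress and hormone signals, so 3 further lists were read beside it, of which 2 hold Dusp1. Of 13 tested genes of the integrated stress response 10 lay above 0, with a median of 0.11 and none called, where 53.0% of all genes were above 0. That median was 0.019 without vehicle replicate 2, with 7 above 0 and 6 below, and 0.21 and 0.19 without vehicle replicate 1 and caffeine replicate 2. Atf4 was at 0.36 (SE 0.14, edgeR adjusted p = 0.924), Ddit3 at 0.30 (SE 0.20) and Ppp1r15a at 0.24 (SE 0.16; 0.099 without vehicle replicate 2). Of 10 glucocorticoid-induced genes 7 lay above 0, with a median of 0.13 (0.052 to 0.21 with each library left out) and none called, led by Klf9 (0.50, SE 0.26; 0.30 without vehicle replicate 1), Per1 (0.22, SE 0.15) and Dusp1 (0.20, SE 0.16; 0.089 without caffeine replicate 1). Of 13 tested immediate early genes 11 lay above 0, with a median of 0.16 (0.080 without caffeine replicate 1, 0.094 without vehicle replicate 2) and none called. Without caffeine replicate 3, 7 lay above 0 and 6 below. Of these genes Nr4a1 (0.38, SE 0.16, edgeR adjusted p = 0.943), Dusp1 and Klf4 (0.37, SE 0.30; 0.086 to 0.67 with each library left out) had the smallest p.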

How the data were processed

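RNA-seq of 5 pooled ventricle libraries (TruSeq RNA kit, per the labels' protocols) was analysed from the deposited tables of estimated counts per RefSeq or Ensembl gene and transcript. TopHat, Partek and the builds mm10 and GRCm38 are named, per the submitters' processing notes, without versions. Strand setting: not given in the sources used here. Estimated counts were rounded. Genes were filtered with filterByExpr, scaled by TMM (factors 0.970 to 1.02) and tested with edgeR 4.0.16 in R 4.3.3 (glmQLFit with robust estimation, glmQLFTest, two-sided; Benjamini-Hochberg over all tested features; threshold 0.05). SE is the absolute log2 fold change divided by the root of the F statistic. Transcript usage was tested with diffSpliceDGE. Gene totals before the filter were 21713381 to 25048134 counts per library. CPM uses the totals over the genes that passed the filter, scaled by TMM. Per-kilobase levels used GENCODE transcript lengths matched by RefSeq accession, for 98.4% of tested genes. The deposited stop lay 1 base past the RefSeq end for 7 of the 10 genes. The code was tested on simulated data.

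The 10 genes and the gene lists were chosen with earlier results of these data known. Genes named were the 10, fixed pathway genes (Arnt, Vhl, Hif1an, Egln2, Vegfa, Slc2a1, Bnip3l, Pdk3, Calcrl, Ramp2), up to 3 genes per list with the smallest p, and the 3 genes nearest to the most variable of the 10; Cul2, Gapdh and single marker genes were added after values were seen. Alternatives were RLE and upper-quartile scaling, no low-count filter, a fit without robust estimation, DESeq2 1.42.0, Ensembl counts, a block for the replicate number, an FDR of 0.1 and each library left out.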

Additional observations from a re-analysis of the deposited data

How the results depend on the processing

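Over the 10 genes, 104 of 120 alternative values kept direction and side of the threshold, 16 changed sign and none passed an adjusted p of 0.05; Egln1, Egln3, Pdk1 and Ndrg1 kept their sign in each of the 12 alternatives. Hif1a was -0.0019 with RLE scaling and with DESeq2, and Bnip3 was -0.0045 with both. With each library left out, the log2 fold change ran from -0.13 to 0.13 for Hif1a, -0.21 to 0.21 for Epas1, -0.11 to 0.070 for Bnip3, -0.088 to 0.44 for Adm, -0.16 to 0.20 for Ddit4, -0.089 to 0.24 for Kdm3a, -0.067 to 0.21 for NM_001038695 and -0.11 to 0.29 for NM_173001. It ran from -0.064 to 0.092 for Arnt, -0.092 to 0.042 for Vhl, -0.10 to 0.18 for Egln2, -0.27 to 0.22 for Slc2a1, -0.13 to 0.033 for Bnip3l, -0.14 to 0.18 for Calcrl and -0.18 to 0.051 for Ramp2. With the replicate block, Vhl was 0.041, Egln2 -0.0049 and Bnip3l 0.030. The labels give 2 pools of each group the numbers 1 and 2, with no statement that they pair. Deviations of same-numbered pools from their group means correlated at -0.02 and 0.13 across genes. Caffeine replicate 3 has no same-numbered vehicle pool and gave 0.13 with vehicle replicate 1. With 2 vehicle pools the deviations are mirror images, so this check could hardly tell pairing from none, and no pairing was shown. The count of genes called, 1, was 6 without the low-count filter, 18 with DESeq2, 52 with the replicate block, 2 on the Ensembl table and 0 to 18 with each library left out. The count of transcripts, 0, was 194 with DESeq2, 9 with the replicate block and 0 to 1 with each library left out. The count of genes with changed usage, 89, was 28 with the Simes adjustment, 3 with the replicate block and 15 to 53 with each library left out. The cause of these shifts was not tested. With 2 against 3 pools and a median SE of 0.17 on the log2 scale, differences of the size estimated for most of the 10 genes were not detectable.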
